A study of Mus musculus with 3 samples.

Results

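Genes named for enzymes that write and erase histone and DNA modifications were examined for occupancy by TRα1, a thyroid hormone receptor, in GABAergic neurons of the adult mouse striatum. They were chosen by name: the protein-coding genes of GENCODE release 21 for GRCm38 whose symbols begin with Kmt, Kdm, Setd, Hdac, Sirt, Kat, Dnmt, Ehmt, Suv or Tet directly followed by a digit, together with Dot1l, Ezh1 and Ezh2. The rule leaves out 1 gene, and 74 of 21938 protein-coding genes met it. The rule itself uses gene names and no measured value. The data were 1 list of 23988 TR binding sites (TRBS), and a TRBS was linked to a gene when its summit, the base of highest coverage, lay inside the gene body or within 10 kb of the 5′ end, called here the transcription start site (TSS).

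Chromatin came from the dissected striatum of untreated, euthyroid male C57BL/6J mice, 8 weeks old, whose GABAergic neurons expressed TRα1 with a GS tag. Tissue was crosslinked with disuccinimidyl glutarate and then formaldehyde, and there were 2 ChIP libraries and 1 input library, all of this genotype. The study describes a floxed tagged construct, while the promoter that drives Cre is not given in the sources used here. The list carries no value for a single library and no untagged or hormone-treated group was analysed here, so replicates were not compared, the depth of each library is unknown, and the results are descriptions without tests. Intervals given below are 95% Wilson intervals and cover counting error only. Where a count was 0, the upper limit given is instead 3 divided by the number of genes or sites counted. No expression data were used here, so the labelled cell type was not checked against its markers, and the comparison with all protein-coding genes, the 74 included, takes no account of which genes these neurons express.

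Thyroid hormone receptors bind DNA mainly as heterodimers with RXR, preferentially at DR4 elements, a pair of AGGTCA half-sites repeated in the same direction with a spacer between them. Receptor without hormone recruits corepressor complexes that contain histone deacetylases, and receptor with hormone recruits coactivators that include histone acetyltransferases. Many of the genes described here encode enzymes of this kind, which add or remove methyl and acetyl groups on histones, or methylate cytosines in DNA and oxidise the methyl group. They were chosen by symbol, however, and not every product is known to act on histones or DNA. The roles used below are groups of genes and do not show the activity of each product. Mutations in several of them cause neurodevelopmental disorders in humans.

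TRBS were linked to 53 of the 74 genes, which is 71.6% (60.5 to 80.6%), beside 44.7% of all protein-coding genes. A promoter-proximal site, with its summit at most 1 kb from the TSS, was present at 30 of the genes, or 40.5% (30.1 to 51.9%), beside 23.2% of all protein-coding genes. Among sites with a score of at least 200 that difference was not resolved, with 9 genes, or 12.2% (6.53 to 21.5%), beside 9.22%. At least 2 sites were linked to 35 genes, or 47.3% (36.3 to 58.5%), beside 20.1%, and the mean number per gene was 1.85, beside 0.956 over all protein-coding genes. Over the whole list, each of the 3 shares of the chromatin enzyme genes was above that over all protein-coding genes, which lay outside the interval. When TRBS were assigned to the nearest TSS only, 50 of the 74 genes kept a site, 67.6% beside 36.1%. Whether genes expressed in these neurons would give the same shares was not tested.

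**Figure D1:**
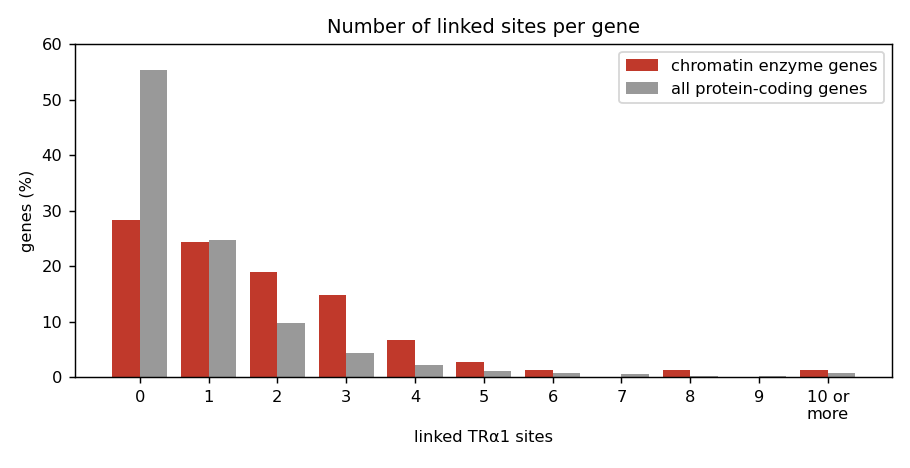
The bars show the percentage of genes (vertical axis) with each number of linked TRBS (horizontal axis), in red for the 74 chromatin enzyme genes and in grey for all 21938 protein-coding genes. No site was linked to 28.4% of the chromatin enzyme genes and to 55.3% of all genes, and 3 sites were linked to 14.9% and 4.35%.

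A longer gene offers more sequence in which a site can be linked, and the chromatin enzyme genes were longer, with a median of 41.6 kb beside 17.4 kb. Within classes of gene length the differences were uneven. Of the genes under 10 kb, 7 of 8 had a linked site (87.5%, 52.9 to 97.8%) beside 28.6% of all genes of that length. These were Kat2a, Kat5, Kmt5c, Setd6, Sirt4, Sirt6 and Sirt7, and Hdac10 had none. Of the genes of 60 to 120 kb, 20 of 21 had a site (95.2%, 77.3 to 99.2%) beside 67.0%, with 13 of these 21 having a promoter-proximal one (61.9%, 40.9 to 79.2%) beside 33.9%. In the classes of 10 to 30 kb, 30 to 60 kb and over 120 kb, the shares with a site were 47.4%, 57.9% and 85.7% beside 40.7%, 53.3% and 80.9%, each within the interval of the chromatin enzyme genes. For linked sites, the excess over all protein-coding genes was therefore seen in the shortest and in the second longest class and was not resolved in the other 3. For promoter-proximal sites it was resolved in the class of 60 to 120 kb alone. The share was 37.5% (13.7 to 69.4%) beside 15.2% under 10 kb and 42.1% (23.1 to 63.7%) beside 28.9% at 30 to 60 kb, and it was below that of all genes at 10 to 30 kb, 21.1% beside 23.5%, and over 120 kb, 28.6% beside 31.8%.

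**Figure D2:**
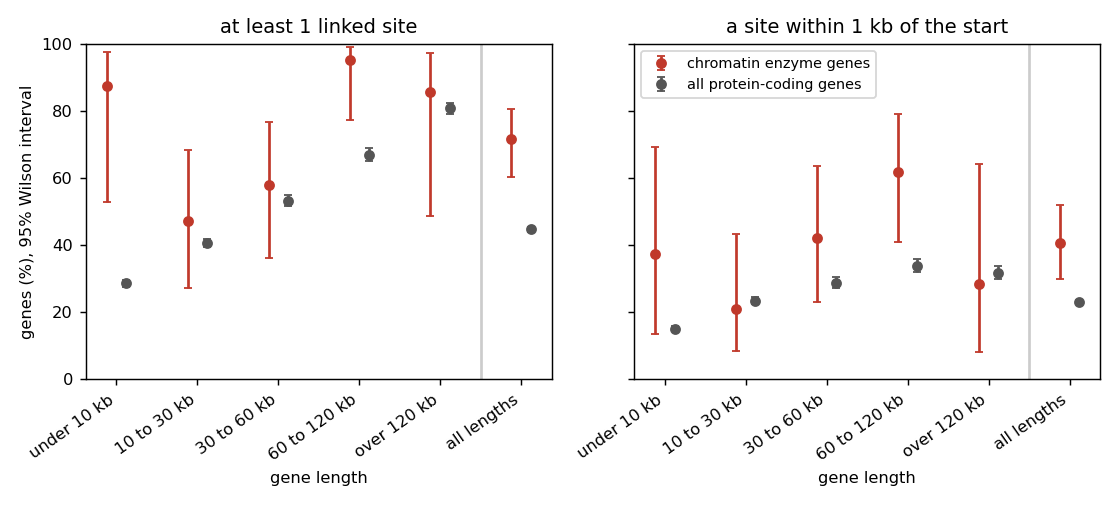
Points show the percentage of genes with at least 1 linked TRBS (left) and with a TRBS within 1 kb of the TSS (right) by class of gene length, in red for the chromatin enzyme genes and in grey for all protein-coding genes, with 95% Wilson intervals. In the left panel the grey point lies below the red interval under 10 kb, at 60 to 120 kb and over all lengths.

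The 137 sites linked to these genes were mostly of ordinary strength. Their strength is given by the fold enrichment of the authors, the ratio of the fragment coverage at the summit (pileup) to a local background. The median was 7.07, with quartiles of 5.71 and 9.48, beside a median of 7.40 over the whole list. Of the 53 genes with a site, 30 had no site with a fold enrichment of 10 or more (56.6%, beside 53.8% of all genes with a site). The range, however, reached from 4.48 to 120.77, and its upper end held more of these genes than the list as a whole. A fold enrichment of 50 or more, a value chosen after the sites had been ranked, was reached by a site at 6 of the 74 genes, or 8.11% (3.77 to 16.6%), beside 0.848% of all protein-coding genes. These were 6 of the 137 sites, 4.38%, beside 0.834% of the list. At a fold enrichment of 25 or more the shares of sites were alike, 5.84% beside 5.57%, while the shares of genes were 10.8% and 5.01%.

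The 6 genes were Kmt5c, Dot1l, Setd5, Tet3, Kmt2e and Kdm6b, and 4 of the 6 sites lay just upstream of a TSS. Kmt5c encodes a methyltransferase that places higher methylation states on a lysine of histone H4 in heterochromatin. Its only site (chr7:4739277-4741017) peaked 143 bp before the TSS at a fold enrichment of 121 (pileup 364 fragments), the second of the 23988 sites. Dot1l, the methyltransferase of a lysine in the core of histone H3 that marks transcribed genes, had a site (chr10:80754542-80756062) 227 bp before the TSS at a fold enrichment of 107 (pileup 445). The score of that site, 7597, was the highest in the list. Setd5 encodes a SET-domain protein whose loss of function causes intellectual disability. Its strongest site (chr6:113074141-113077043) was 2903 bp long and peaked 895 bp upstream at a fold enrichment of 93.3 (pileup 342). Kmt2e, which encodes a SET-domain protein of the MLL group that reads methylated histone H3, had a site 939 bp upstream (chr5:23432709-23434600) at a fold enrichment of 59.9 (pileup 184). For each of these 4 sites the nearest protein-coding TSS was that of the gene, and the site was linked to no other protein-coding gene.

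Kdm6b and Tet3 had their strongest sites farther from the TSS. Kdm6b encodes a demethylase that removes the Polycomb mark from histone H3. Its site (chr11:69417567-69418991) was 4586 bp upstream at a fold enrichment of 56.5 (pileup 208), and 2 further sites inside the gene had fold enrichments of 8.55 and 5.10. Tet3, which encodes a dioxygenase that oxidises methylated cytosine, had its site (chr6:83439739-83440657) 19072 bp downstream of the TSS, in an untranslated exon, at a fold enrichment of 71.0 (pileup 190). For linked sites, an untranslated exon is an exon of any annotated transcript of the gene outside coding sequence, including transcripts that encode no protein. Over the 12 genes with the highest fold enrichment, the scores of the strongest sites ran from 488 at Sirt7 to that of Dot1l. The sequences around the summits of the 5 upstream sites are shown because these sites are among the strongest of the list and have no DR4 near the summit. They are from the plus strand of the RefSeq sequence of GRCm38, with 75 bases on each side of the summit, at chr7:4739897-4740047 for Kmt5c, chr10:80754904-80755054 for Dot1l, chr6:113076395-113076545 for Setd5, chr5:23433427-23433577 for Kmt2e and chr11:69418186-69418336 for Kdm6b. Capitals mark exact matches on either strand to the GC box GGGCGG or to the ETS motif CCGGAA.
Kmt5c: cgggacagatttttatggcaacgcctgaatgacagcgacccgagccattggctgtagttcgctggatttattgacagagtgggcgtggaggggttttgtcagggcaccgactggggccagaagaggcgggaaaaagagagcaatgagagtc
Dot1l: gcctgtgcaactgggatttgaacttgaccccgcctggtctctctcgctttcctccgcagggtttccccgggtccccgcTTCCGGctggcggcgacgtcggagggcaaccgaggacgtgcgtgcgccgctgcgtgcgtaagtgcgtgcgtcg
Setd5: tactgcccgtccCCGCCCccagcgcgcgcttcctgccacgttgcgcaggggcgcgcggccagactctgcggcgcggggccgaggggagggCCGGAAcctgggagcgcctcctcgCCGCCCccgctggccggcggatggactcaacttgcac
Kmt2e: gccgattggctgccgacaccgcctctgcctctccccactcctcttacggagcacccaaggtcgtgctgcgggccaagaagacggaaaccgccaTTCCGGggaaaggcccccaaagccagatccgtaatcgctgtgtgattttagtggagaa
Kdm6b: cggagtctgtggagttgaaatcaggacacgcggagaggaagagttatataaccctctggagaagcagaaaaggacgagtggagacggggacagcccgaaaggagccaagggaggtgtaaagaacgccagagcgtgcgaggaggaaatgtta
None of the 5 windows overlapped a coding sequence or an untranslated region of the annotation. The Setd5 window held 2 GC boxes and 1 ETS motif, the windows of Dot1l and Kmt2e held 1 ETS motif each, and those of Kmt5c and Kdm6b held neither. No window held a DR4 with at most 2 mismatches. Within 150 bp of the summit, the Kdm6b site did hold a GC box and an ETS motif. At that width the Dot1l site also held a GC box and the Kmt2e site a half-site AGGTCA.

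**Figure D3:**
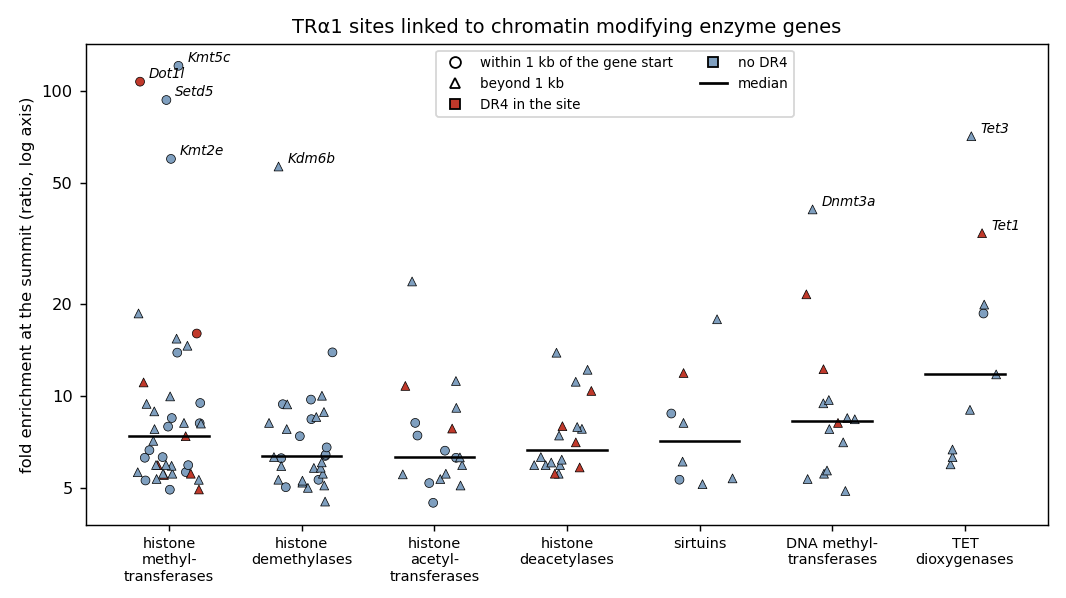
Each symbol is 1 TRBS linked to a chromatin enzyme gene, placed by the role of the gene (horizontal axis) and by its fold enrichment (vertical log axis); circles lie within 1 kb of the TSS, triangles beyond, red marks a DR4 in the site and black lines the medians. Sites with a fold enrichment over 30 carry the name of the gene: 4 belong to genes grouped as histone methyltransferases, 1 to a demethylase, 1 to a DNA methyltransferase and 2 to TET dioxygenases.

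Genes grouped here as histone methyltransferases, Setd5 and Kmt2e included, held 4 of the 8 sites with a fold enrichment of 25 or more. They also held 41 of the 137 sites of any strength. Of the 23 genes, 19 had a linked site (82.6%, 62.9 to 93.0%, beside 44.7% of all genes), and 14 had a promoter-proximal site (60.9%, 40.8 to 77.8%, beside 23.2% of all genes). All 3 Kmt5 genes, which encode methyltransferases of histone H4, had 1 site each, at fold enrichments of 121 for Kmt5c, 9.51 for Kmt5b and 8.18 for Kmt5a. Of the 5 Kmt2 genes, which encode the MLL proteins, 4 had a site and each of the 4 had a promoter-proximal one. Apart from Kmt2e, the strongest site at any distance was at Kmt2b, at 16.1, then Kmt2a at 8.14 and Kmt2c at 4.95. That of Kmt2b was promoter-proximal. Those of Kmt2a and Kmt2c lay in introns, 15203 and 171891 bp downstream of the TSS. For the Kmt2c site the nearest TSS was that of E130116L18Rik. The promoter-proximal sites of Kmt2a and Kmt2c had fold enrichments of 5.65 and 4.94, with scores of 78 and 66. Kmt2d had no site. Of the 8 Setd genes 7 had a site: Setd1b, which encodes the catalytic subunit of a COMPASS complex, had 4 sites between 1653 and 7446 bp upstream with fold enrichments up to 15.4, while its paralog Setd1a had none. All 4 were also linked to Rhof, whose TSS was the nearest for the site at 7446 bp. The strongest sites of Setd7, Setd2, Setd6, Setd4 and Setd3 had fold enrichments of 13.9, 11.1, 8.93, 5.53 and 5.30. The sites of Setd6 were also linked to Ndrg4, and for the site of Setd4 the nearest TSS was that of Cbr1. The counts of Kmt5, Kmt2 and Setd genes with a site stand beside the 44.7% of all genes. Differences in gene length were not taken into account for them, nor for the shares of genes by role given here and below.

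Ehmt1 and Ehmt2 encode GLP and G9a, the paired methyltransferases that silence euchromatic genes. The strongest site of Ehmt2 (chr17:34894094-34895029) peaked 3882 bp upstream at a fold enrichment of 18.7 (pileup 54), but the nearest TSS was that of C2 and the site was also linked to C2 and Zbtb12. Ehmt2 had a further site 306 bp downstream of the TSS, at 6.66. Ehmt1 had 3 sites, the strongest 54 bp downstream of the TSS at 8.49. The 2 catalytic subunits of the Polycomb complex PRC2 differed in occupancy, with 1 site at Ezh2, 1022 bp downstream of the TSS at 9.44, and none at Ezh1. Of the heterochromatin methyltransferases Suv39h1 and Suv39h2, Suv39h2 had a site 243 bp upstream at 6.32 and Suv39h1 had none.

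Histone demethylase genes had weak sites outside Kdm6b. Of the 18 genes 13 had a linked site (72.2%, 49.1 to 87.5%, beside 44.7% of all genes) and 9 a promoter-proximal one (50%, 29.0 to 71.0%, beside 23.2%). The 9 were Kdm1a and Kdm1b (both flavin-dependent enzymes), Kdm2a, Kdm3a, Kdm4d, Kdm5a, Kdm5b, Kdm6a and Kdm7a. For the promoter-proximal site of Kdm4d the nearest TSS was that of Cwc15. Outside Kdm6b the highest fold enrichment of 27 sites was 13.9, at a site 210 bp upstream of Kdm7a. Kdm4b, which removes a silencing mark from histone H3, had 6 sites, all inside the gene between 11.3 and 65.6 kb from the TSS, the strongest at chr17:56391270-56391863. Their fold enrichments were 8.18, 8.88, 6.08, 5.83, 9.41 and 10.04 in the direction of transcription, and their pileups ran from 16 to 29. The strongest sites of Kdm2a and Kdm5a reached 9.42 and 8.42, and those of Kdm5c, Kdm4d, Kdm3a, Kdm6a, Kdm5b, Kdm3b, Kdm1a and Kdm1b lay between 5.04 and 7.81. Kdm2b, Kdm4a, Kdm4c, Kdm5d and Kdm8 had no linked site.

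Acetyltransferases had sites at 6 of 8 genes (75%, 40.9 to 92.9%, beside 44.7% of all genes), promoter-proximal at 4 (50%, 21.5 to 78.5%, beside 23.2%), and both intervals include the value over all genes. Kat6b, a MYST acetyltransferase of histone H3, had 8 sites between 19.0 and 178.5 kb downstream of the TSS and none near it. The strongest (chr14:21500899-21501723) reached a fold enrichment of 23.8 (pileup 69), and the next reached 11.2 at 41320 bp. Its paralog Kat6a had 1 site, 70 bp from the TSS, at 6.29. Kat2b, the acetyltransferase PCAF and a coactivator of nuclear receptors, had 3 promoter-proximal sites with fold enrichments of 4.48, 7.44 and 8.18, and a site 75802 bp downstream at 10.8. Kat2a, the paralog GCN5, had 2 sites of 5.20 and 5.10. Kat14 had a site 208 bp from its TSS at 6.64, which was nearer to the TSS of Pet117, and Kat5 (TIP60) had 1 site at 5.58, 8661 bp upstream and thus close to the limit of 10 kb. No site was linked to Kat7 or Kat8.

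None of the 10 deacetylase genes had a TRBS within 1 kb of the 5′ end of the gene, which allows a share of up to 30%, beside 23.2% of all protein-coding genes. Starts of other transcripts inside the genes were not counted here. Over the 74 genes, counting them raised the number with such a site from 30 to 39. Whether deacetylase genes are among those gained was not examined. A linked site at any distance was present at 6 of the 10 (60%, 31.3 to 83.2%, beside 44.7%). By class, sites were at all 4 class IIa genes, Hdac4, Hdac5, Hdac7 and Hdac9, which encode signal-dependent corepressors that shuttle between nucleus and cytoplasm. Their 14 sites lay 2.53 to 165.7 kb downstream of the TSS, 12 in introns and 2 in untranslated exons. The class IIa genes were also long, with a median of 159.4 kb. Hdac4 and Hdac9 are over 120 kb, a class in which 80.9% of all protein-coding genes had a linked site. Hdac5 and Hdac7 are of 30 to 60 kb, a class in which 53.3% had one. Hdac4 had 5 sites, with fold enrichments of 10.4, 5.85, 13.9, 5.95 and 5.95 and pileups of 27, 15, 48, 23 and 15, of which the strongest (chr1:92180117-92180474) lay 15387 bp from the TSS. The strongest sites of Hdac5, Hdac9 and Hdac7 had fold enrichments of 12.2, 11.2 and 7.07. Of the 3 class I genes that the rule keeps, Hdac1 and Hdac2, which encode deacetylases of nuclear corepressor complexes, had no site and Hdac8 had 1, at 5.58 and 114380 bp from the TSS. The class IIb genes Hdac6 and Hdac10 had none, and Hdac11 had 3 sites between 2664 and 4652 bp upstream, at 7.98, 6.07 and 7.82.

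Sirtuins, the NAD-dependent deacylases, had sites at 5 of 7 genes (71.4%, 35.9 to 91.8%), an interval that includes the 44.7% of all genes. Sirt1, Sirt6 and Sirt7, whose products are nuclear, had 3, 1 and 2 sites. The strongest, at Sirt7 (chr11:120632625-120633717), reached a fold enrichment of 17.9 (pileup 49), but it lay 7943 bp upstream, and the nearest TSS was that of Mafg. Sirt1 had sites at 5.15, 6.11 and 8.18, the last 4933 bp upstream and nearer to the TSS of Dnajc12. Sirt2 had a site 379 bp upstream at 8.78 and Sirt6 a site 352 bp downstream at 5.33. Of the sirtuins of mitochondria, Sirt4 had 1 site (chr5:115475722-115476417) at a fold enrichment of 11.9 (pileup 37), 8576 bp from the TSS and past the 3′ end of the gene. Sirt3 and Sirt5 had none.

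The enzymes of DNA methylation were divided. All 14 sites of the 5 Dnmt genes were at Dnmt3a, the de novo methyltransferase that is abundant in neurons, and it had the most sites of the 74 genes. Dnmt1, Dnmt3b, Dnmt3c and Dnmt3l had none. The sites of Dnmt3a fell into a group of 9 between 2.19 and 52.0 kb from the TSS, with fold enrichments of 5.71 to 40.9, and a group of 5 between 84.0 and 93.5 kb, with fold enrichments of 4.90 to 8.49, for which the nearest TSS was that of Pomc. The strongest (chr12:3834318-3835190) was in an intron 28708 bp from the TSS, with a pileup of 109. A second strong site, 2191 bp from the TSS, reached 21.6 (pileup 57). Of all protein-coding genes, 152 had 10 or more sites, 0.693%.

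All 3 TET genes had at least 2 sites, beside 20.1% of all protein-coding genes. They were 81.5 to 104.4 kb long, in a class of length of which 67.0% of all genes had at least 1 site. All genes of that class had a mean of 1.60 sites, and their share with at least 2 was not counted. All 3 TET genes were among the 10 genes with the highest fold enrichment here. Tet1 had a site in an intron 43285 bp from the TSS (chr10:62865331-62866353), at a fold enrichment of 34.2 (pileup 133), and a second at 5.99. Tet2 had a site 655 bp from the TSS (chr3:133544280-133545555), at a fold enrichment of 18.8 (pileup 68), and a second 14279 bp from it at 11.8. Tet3 had 5 sites, with fold enrichments of 71.0, 6.32, 6.69, 9.03 and 20.0 in the direction of transcription. The last (chr6:83368101-83368691), in a coding exon, had a pileup of 519, the tenth of the list, over a local background of 25.0 fragments. Only 50 of the 23988 sites, 0.208%, had a background of 20 or more, and no other site linked to these genes had one. Its coverage was therefore high in the background as well, and whether it marks receptor was not tested.

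**Figure D4:**
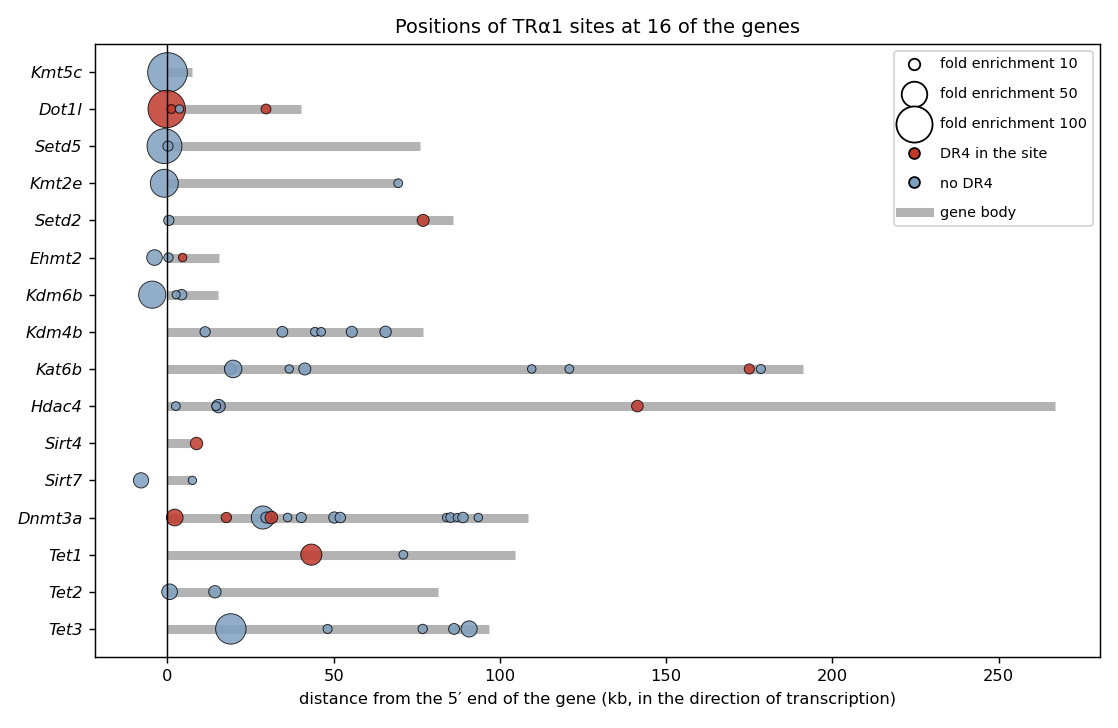
TRBS (circles) are placed by their distance in kb from the TSS (horizontal axis) for the 16 genes described with full values, with grey bars for gene bodies, circle area proportional to fold enrichment, and red for a DR4 in the site. The strongest sites of Kmt5c, Dot1l, Setd5 and Kmt2e lie at the TSS, while the sites of Dnmt3a, Kat6b, Kdm4b, Hdac4 and Tet3 are spread through the genes.

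A DR4 was searched on both strands as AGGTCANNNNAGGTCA allowing up to 2 mismatches over the 12 bases of the half-sites. It was present in 20 of the 137 sites, 14.6% (9.65 to 21.5%), beside 17.3% of all sites in the list, and beside 4.38% of windows as wide as the sites and shifted by 5 kb. At least 1 linked site with a DR4 was present at 15 genes, 20.3% (12.7 to 30.8%), beside 12.2% of all protein-coding genes. The share of sites was thus near that of the list. The share of genes was higher, and its interval was just clear of the value over all genes. Linked sites of any kind were also more frequent at these genes, 71.6% beside 44.7%. Among genes with a linked site, 15 of 53 had one with a DR4, beside 2673 of 9810 over all protein-coding genes. Those shares are similar. Within 100 bp of the summit the shares of sites were 9.49% and 13.1%. Of the sites within 1 kb of the TSS, 2 of 37 held a DR4 (5.41%, beside 9.83%), and of those beyond, 18 of 100 (18%, beside 19.8%).

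By role, the sites with a DR4 numbered 8 of 41 for methyltransferases, 2 of 17 for acetyltransferases, 5 of 18 for deacetylases, 1 of 8 for sirtuins, 3 of 14 at Dnmt3a and 1 of 9 for TET genes. None of the 30 demethylase sites held one, which allows a share of up to 10%, beside 17.3% of all sites. Of the 6 sites with a fold enrichment of 50 or more 1 held a DR4, beside 64 of the 200 such sites of the list (32.0%). That was the site at the TSS of Dot1l, where the match lay 825 bp from the summit. The remaining 5 had 3 or 4 mismatches in their best match, and the same was true of the strongest sites of Dnmt3a and Kat6b. Among the class IIa deacetylases, Hdac4, Hdac5 and Hdac7 had at least 1 site with a DR4, and Hdac9 had none.

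The closest matches, with at most 1 mismatch, were found in 7 sites, 5.11% (2.50 to 10.2%), beside 3.86% of the list. They are shown because they are the nearest to the receptor's element at these genes, 5′ to 3′ on the strand of the match, with 5 flanking bases on each side and the half-sites in capitals, from the RefSeq sequence of GRCm38. Their positions are chr12:3837281-3837306 for Dnmt3a, chr10:80785061-80785086 for Dot1l, chr17:34903079-34903104 for Ehmt2, chr1:92054360-92054385 for Hdac4, chr14:21656425-21656450 for Kat6b, chr9:110609572-110609597 for Setd2 and chr5:115476096-115476121 for Sirt4. The matches of Dot1l, Kat6b and Setd2 are on the minus strand and the others on the plus strand.
Dnmt3a: tgtggAAGTCAgctgAGGTCAcgggc
Dot1l: gaatcAGGTCAttgtAGGTCAgcgcc
Ehmt2: ggggaAGGTGActtcAGGTCAgtcac
Hdac4: gaggcAGGTCAggccAGGCCAcagca
Kat6b: cctaaAGGTGActcaAGGTCAgggcc
Setd2: tgggaAGTTCAaatgAGGTCAtgagc
Sirt4: cccaaAGGTCAggccAGGCCAcctgc
The match of Dot1l had no mismatch and the other 6 had 1 each. In 6 of the 7 the centre of the match lay 28 to 75 bp from the summit, and at Dot1l it lay 219 bp away. None of these sites was the strongest of its gene except at Setd2, where the summit was 76913 bp from the TSS at a fold enrichment of 11.1 (chr9:110609327-110609666, pileup 29), and at Sirt4. The other fold enrichments were 12.3 at Dnmt3a, 10.4 at Hdac4, 7.84 at Kat6b, 7.40 at Dot1l and 5.58 at Ehmt2. For the sites of Dot1l, Kat6b and Setd2 the nearest TSS was that of another gene, Sf3a2, Dupd1 and Nradd. The element and spacer of Hdac4 and Sirt4 are the same 16 bases, which occur 13 times in the reference genome, and no base of the 7 sequences is marked as a repeat in the reference.

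Other motifs were searched as exact matches on both strands within 150 bp of the summit. The GC box was present in 30 of the 37 sites within 1 kb of the TSS (81.1%, 65.8 to 90.5%), beside 64.8% of all sites within 1 kb of a protein-coding TSS. It was present in 24 of the 100 sites beyond 1 kb (24%, 16.7 to 33.2%), beside 13.4%. Median GC content was also higher, 69.1% beside 65.6% near the TSS and 52.8% beside 48.8% beyond, and the part of base composition in the GC box shares was not tested. The ETS motif was present in 21.6% of sites near the TSS beside 22.4% and in 9% (4.81 to 16.2%) beside 4.96% beyond, and the single half-site AGGTCA in 8.11% beside 16.3% near the TSS (2.80 to 21.3%) and 26.0% beside 25.1% beyond. The AP-1 motif TGANTCA was present in 17.0% of sites beyond 1 kb, beside 17.0% of all such sites, and in none of the 37 near the TSS, which allows up to 8.11%, beside 4.58%. The E-box CACGTG was present in 8.11% beside 9.44% near the TSS and 5% beside 6.36% beyond. Matches to GCATGCGC (NRF1) and AAGATGGC (YY1) were found in 1 site each near the TSS and 1 each beyond, and TGACGTCA (CRE) in none of the 137, which allows up to 2.19%, beside 0.80% of all sites. Apart from the GC box beyond 1 kb and near the TSS, these shares were within counting error of those of the list.

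**Figure D5:**
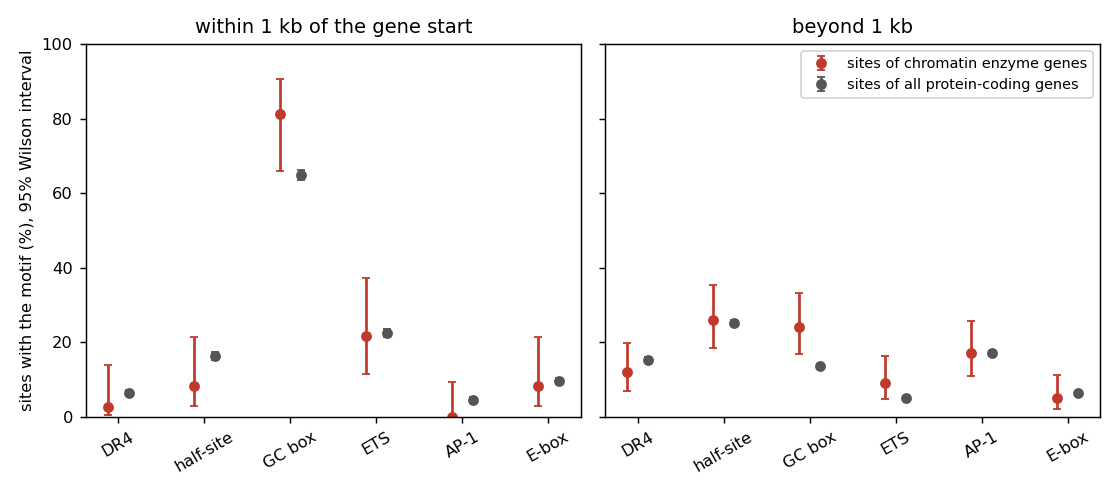
Points show the percentage of TRBS that hold each motif, within 1 kb of the TSS (left) and beyond (right), in red for sites of the chromatin enzyme genes and in grey for sites of all protein-coding genes, with 95% Wilson intervals. DR4 is counted here within 100 bp of the summit and the others within 150 bp, and in both panels the grey point lies below the red interval for the GC box alone.

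By position, 78 of the 137 sites were in introns (56.9%), 32 upstream of the gene, 17 in untranslated exons as defined above, 8 in coding exons and 2 past the 3′ end. Of the 37 sites within 1 kb of a TSS, 15 were upstream and 22 downstream, at a median distance of 297 bp. Of the other 100, 83 were downstream. The link of a site to a gene was not always unique: 27 of the 137 (19.7%) were also linked to another protein-coding gene, beside 28.9% of all pairs of a gene and a site, and for 106 (77.4%) the nearest TSS was that of the chromatin enzyme gene, beside 68.7%. At 39 of the 53 genes at least 1 site was linked to no other gene. Of the 5 genes on chromosome X, 3 had a site, beside 19.8% of all genes of this chromosome, and their 5 sites had fold enrichments of 5.01 to 7.81.

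For the 21 genes without a linked site, the median distance from the TSS to the nearest TRBS was 44.6 kb. Their median length was 29.7 kb, beside 52.2 kb for genes with a site. The nearest were Sirt5 at 14.4 kb, Dnmt3l at 23.0 kb, Kdm2b at 25.0 kb, Sirt3 at 26.5 kb and Hdac6 at 27.5 kb, followed by Setd1a at 30.7 kb. Kat7, Kat8, Ezh1, Kdm8, Dnmt3c, Kdm4a, Kmt2d, Hdac10, Suv39h1, Dnmt1, Hdac2, Hdac1, Dnmt3b and Kdm4c followed between 33.2 and 95.2 kb. For Kdm5d, on chromosome Y, the distance was 637 kb. Where the site lies past the 3′ end, the gene itself is part of this distance. At Kdm4a, 43.1 kb long, a site with a fold enrichment of 24.1 lay 44.8 kb from the TSS, just past the 3′ end. Ezh1 and Dnmt1, 35.3 and 52.7 kb long, also had a site past the 3′ end, 37.8 and 58.4 kb from the TSS. Sites past the 3′ end are linked only within 10 kb of the TSS. The genes without a site include the maintenance methyltransferase Dnmt1, the class I deacetylase genes Hdac1 and Hdac2, and the MYST genes Kat7 and Kat8. Depth is unknown, so weaker occupancy at these genes cannot be told apart from none.

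Genes of the same reactions whose symbols lack the chosen prefixes had sites at 21 of 34 (61.8%, 45.0 to 76.1%, beside 44.7% of all genes). A promoter-proximal one was present at 10 of the 34 (29.4%, 16.8 to 46.2%), near the 23.2% of all genes. Their highest fold enrichments were at Carm1, an arginine methyltransferase and coactivator of nuclear receptors (40.6), Nsd1 (35.6) and Nsd3 (16.4), both methyltransferases of histone H3. The acetyltransferase genes Crebbp and Ep300 had 1 site at 7.84 and none. Genes of subunits of the complexes in which these enzymes work had sites at 25 of 35 (71.4%, 54.9 to 83.7%, beside 44.7%), promoter-proximal at 16 of 35 (45.7%, 30.5 to 61.8%, beside 23.2%). The highest values were at Jarid2, a subunit of PRC2 (62.4), Rcor3, a corepressor of the Kdm1a complex (27.3), and Chd4, the remodeller of NuRD (26.6). Ncor1, a corepressor that thyroid hormone receptors bind without hormone, had 4 sites, the strongest at 14.2. The intervals of both lists overlap that of the 74 genes.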

How the data were processed

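TRα1 ChIP-seq was analysed from 1 deposited peak list covering 2 ChIP libraries and 1 input library. The authors used Bowtie for alignment to GRCm38 (mm10) and MACS for peak calling, both in Galaxy. The submitters' processing notes name Bowtie2 2.3.2.2 and MACS2 2.1.1.20160309.0. Peaks with a score under 60 had been removed. Whether the ChIP libraries were pooled before calling is not given in the sources used here. The deposited values are the pileup, a coverage signal in fragments at the summit, the fold enrichment, which is the ratio that MACS forms from pileup and local background after adding 1 to both, and the score, a rounded-down multiple of −log10 q. The columns of p and q values were not used. The authors' positions (start, end, summit) were used as given, and none lay past the end of a chromosome of the reference. The columns used belong to the whole list, so no replicate, depth per library or test over samples could be had.

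Sites were linked to genes of GENCODE release 21, motifs were read from the RefSeq sequence of GRCm38, and the background was recovered from pileup and fold enrichment by inverting that ratio. The nearest TSS was taken over protein-coding genes. Repeats are those marked in the reference sequence. Shares carry 95% Wilson intervals, and the limit for a count of 0 is 3 divided by the number counted. Linking and motif search were tested on simulated data. Every gene is named, and further values are given for the 12 genes with the highest fold enrichment, the 5 with the most sites, those with a DR4 of at most 1 mismatch and the strongest of each role; of the related lists the 3 strongest genes are named, and Crebbp, Ep300 and Ncor1 were added after their values were seen. The genes, roles and lists were chosen with earlier results of these data known, and Dnmt3c was added to its role once the annotation was read. The software was Python 3.11.15 with pandas 2.3.3 and numpy 2.4.6, and figures were drawn with matplotlib 3.10.9. The alternatives changed the linking distance, the score minimum, the position used for a peak, the TSS and the DR4 search.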

Additional observations from a re-analysis of the deposited data

How the results depend on the processing

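Of 29 alternatives, 20 were called near the value given above, by limits chosen here that were wide for counts. For example, the 106 sites kept with the nearest TSS only passed as near 137. The upper limit for the number of linked genes lay above the 74 genes that exist, so no larger count could have failed. At the score minimum of the list, the number of linked genes ran from 41 with the gene body only to 58 with 30 kb from the TSS. The shares of all protein-coding genes were 32.4% and 57.7%, beside intervals of 44.1 to 66.2% and 67.7 to 86.2% for the chromatin enzyme genes. The number with a site near the TSS ran from 24 with 500 bp to 39 within 1 kb of any transcript start. There the shares of all protein-coding genes were 19.1% and 27.4%, beside intervals of 22.9 to 43.7% and 41.5 to 63.7%. With sites within 10 kb of the TSS only, 70 sites were linked. With a score of at least 200, 24 genes had 32 sites (32.4% of genes, interval 22.9 to 43.7%, beside 21.9% of all protein-coding genes) and 9 had one within 1 kb of the TSS (12.2%, interval 6.53 to 21.5%, beside 9.22%). The excess near the TSS was thus not resolved among the stronger sites; the cause was not tested. At that score, 28.1% of sites held a DR4, beside 21.7%, and the median fold enrichment was 15.04, beside 14.50. The DR4 share of sites was 5.11% with at most 1 mismatch (3.86% of the list), 50.4% with at most 3 (52.9%) and 9.49% within 100 bp of the summit (13.1%). No paired analysis was possible because the list holds no value for single libraries, and for the same reason no library could be left out. Depth is unknown, so no limit on undetected sites can be given.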
